A study of Mus musculus with 2 samples.

Results

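P4htm, the gene disrupted in the P4H-TM KO mice, was examined together with its relatives among the oxygen-dependent hydroxylases and with the HIF alpha subunits that some of these enzymes hydroxylate. The 10 genes were P4htm, the collagen prolyl 4-hydroxylase genes P4ha1, P4ha2 and P4ha3, the HIF prolyl 4-hydroxylase genes Egln1, Egln2 and Egln3, the HIF asparaginyl hydroxylase gene Hif1an, and Hif1a and Epas1, which encode the alpha subunits of HIF1 and HIF2. They were chosen by name, and every probe set was kept whose platform annotation gives exactly 1 gene symbol and whose symbol is on this list. This gave 20 of 34945 such probe sets and 10 of 18193 genes. Cortical tissue came from untreated male WT mice and from P4h-tm-/- (KO) littermates, all 2.5 months old and of the C57BL/6J strain. RNA of 4 mice per genotype was combined and hybridized to 1 Affymetrix array, so the study holds 2 arrays. Accordingly, differences could not be checked against replicates, and neither a p-value nor an error between animals can be given.

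Prolyl 4-hydroxylases add a hydroxyl group to proline with the help of iron, oxygen and 2-oxoglutarate. The collagen enzymes act inside the ER and allow collagen chains to form a stable triple helix. The HIF enzymes act in the cytosol and nucleus, where they mark HIF alpha for destruction as long as oxygen is present. P4H-TM is anchored in the ER membrane, is abundant in brain, and has been tied to HIF turnover. Because HIF alpha is regulated mainly as a protein, the mRNA values below say nothing about its amount.

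P4htm had the lowest value in KO relative to WT of all 10 genes. On its brighter probe set the log2 value was 11.05 in WT and 9.10 in KO. On its other probe set it was 9.71 in WT and 8.07 in KO. Both probe sets were thus lower in KO, by 3.86-fold and 3.12-fold, or −1.95 and −1.64 on the log2 scale. The remaining signal was 25.9% and 32.1% of that in WT. Of the 19933 probe sets whose mean signal reached 6.385, the median over the array and the signal filter used here, 2 had a difference of −1.95 or lower and 3 had a difference of −1.64 or lower, the P4htm probe sets included. The suffix of the brighter probe set marks probes that can also match other transcripts, and the dimmer probe set carries no such mark. P4htm lies on mouse chromosome 9, from 108578862 to 108598195 in GRCm38.p6. The sources used here do not place these probe sets inside or outside the disrupted sequence, so the signal left in KO cannot be assigned to an intact or to a disrupted transcript.

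**Figure D1:**
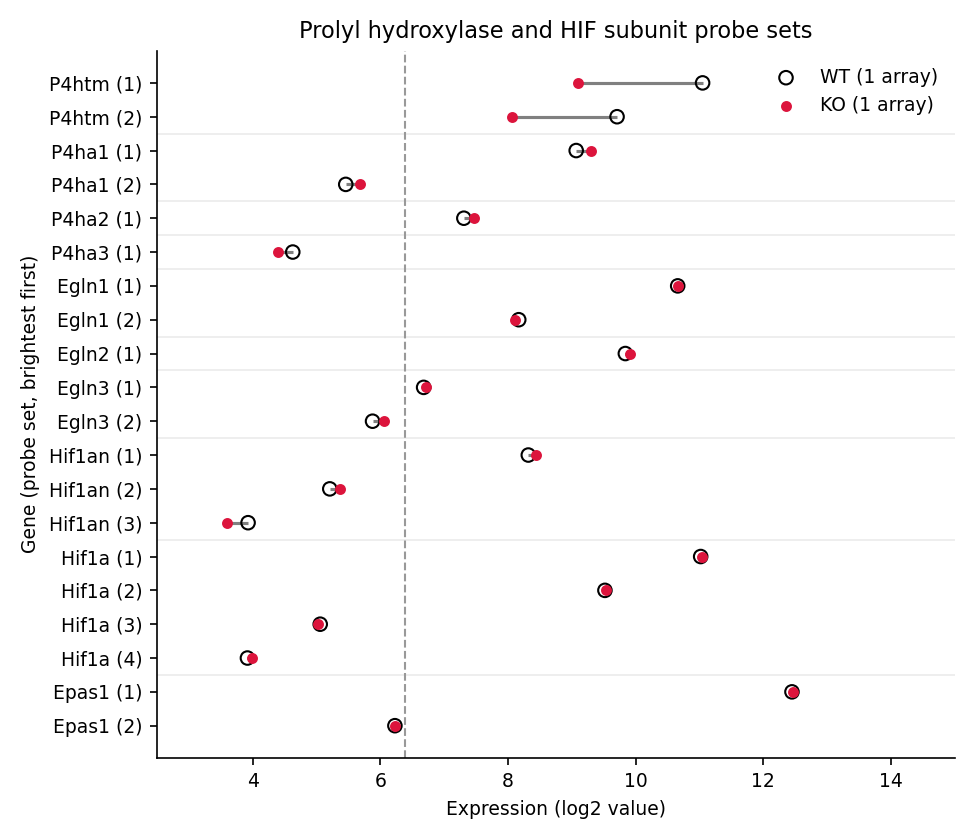
Expression of each probe set of the 10 genes as a log2 value (horizontal axis) in the WT array (open circles) and the KO array (red points), joined by a grey line, with the probe sets of a gene numbered from the brightest and the signal filter of 6.385 dashed. Error bars are missing because each genotype has 1 array; the P4htm pairs are separated by 1.95 and 1.64, and no other pair by more than 0.33.

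At a threshold of 1.5-fold, 2 of the 20 probe sets were lower in KO, and both belong to P4htm. Over all 34945 probe sets the share was 0.14%. None of the 20 was at least 1.5-fold higher, where the share over all probe sets was 0.495%. With shares this small, 0 of 18 probe sets past the threshold does not set the other members apart from the rest of the array. The largest of their differences was −0.33, on a dim probe set of Hif1an. Among these 18 probe sets, 12 had higher, 4 had lower and 2 had equal values in KO, with a median difference of 0.025, against a median of 0.00 over all probe sets. The middle 95% of all differences ran from −0.24 to 0.29 for probe sets at or above the signal filter and from −0.39 to 0.37 for those below it. All 18 lay inside the range for their signal. Levels were not compared between genes, because the brightness of a probe set also depends on its probes.

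**Figure D2:**
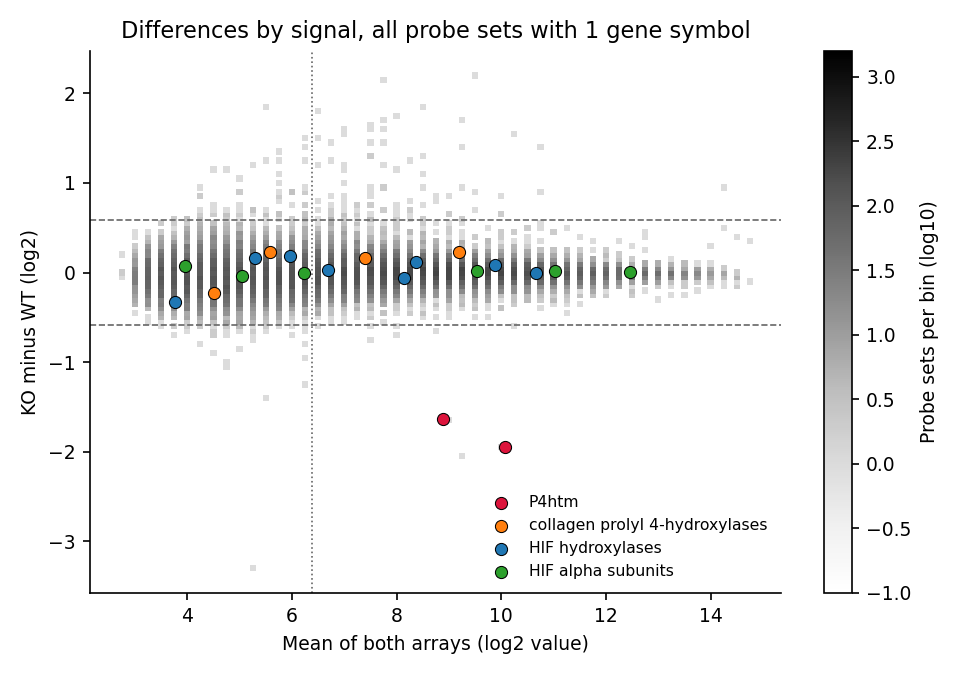
Log2 expression in KO minus WT (vertical axis) against the mean log2 value of both arrays (horizontal axis) for all 34945 probe sets with 1 gene symbol, shown as grey squares shaded by the number of probe sets per bin on a log10 scale, with the 20 probe sets of the listed genes as coloured points. Dashed lines mark 1.5-fold and the dotted line the signal filter of 6.385; the P4htm points lie at −1.95 and −1.64, and the other points between −0.33 and 0.23.

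P4ha1 and P4ha2 had slightly higher values in KO, and P4ha3 had a lower value at a dim signal. These genes encode the catalytic alpha subunits that assemble with the product of P4hb into the collagen prolyl 4-hydroxylases. P4ha1 had log2 values of 9.07 in WT and 9.30 in KO on its brighter probe set, and 5.46 and 5.69 on the dimmer one. Both P4ha1 probe sets therefore differed by 0.23, or 1.17-fold. At or above the signal filter, 4.7% of all probe sets were higher in KO by 0.23 or more. The dimmer P4ha1 probe set lies below the filter, where 9.23% were. P4ha2 had 7.31 in WT and 7.47 in KO on its only probe set, a log2 difference of 0.16 that 10.3% of probe sets at or above the filter reached or passed. P4ha3 had 4.63 in WT and 4.40 in KO, a difference of −0.23 below the signal filter, where 13.7% of probe sets were as low or lower.

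None of the other genes needed for collagen hydroxylation and folding reached 1.5-fold, and most had somewhat higher values in KO. Of 13 measured genes on a list of such partners, 11 had higher, 1 had lower and 1 had equal values, with a median log2 difference of 0.08. Over all genes the median was 0.00 and 46.0% had higher values, dim genes included, whereas all 13 partners had a signal above the filter. Of the 19933 probe sets at or above the filter, 10181 were higher and 8845 lower, with a median of 0.01. With probe sets averaged, 9 were higher and 3 lower, and the median was 0.04. Over all 18193 genes, each taken on its brightest probe set, 0.61% were at least 1.5-fold higher and 0.148% at least 1.5-fold lower, so a count of 0 is no result about this list, nor about the lists of 18, 22 and 44 genes described further on. Serpinh1, which encodes the collagen chaperone HSP47, had 8.24 in WT and 8.74 in KO. Crtap, a partner of the prolyl 3-hydroxylase complex, had 6.90 in WT and 7.39 in KO. The log2 differences of 0.50 and 0.49 were the highest on the list. The lowest were those of P3h4 (−0.05), related to the prolyl 3-hydroxylases, and of Colgalt2 (0.00), a collagen galactosyltransferase, while P4hb, the shared beta subunit, differed by 0.04.
In the same KO array, 12 of 13 markers of the meninges, the collagen-rich membranes around the brain, were higher, with differences between −0.01 and 0.90, and all 13 had a signal above the filter. The log2 of their summed linear level was 14.19 in WT and 14.58 in KO, a sum made up mostly of Ptgds with 13.75 and 14.04. Dcn had a difference of 0.90 on its brighter probe set and 0.10 on the other, while Col3a1 had 0.65 and 0.48 and Mgp, with a single probe set, 0.67. These are among the highest of the 13 markers, whose median was 0.37. Col1a1 and Slc13a3 had 0.10 each and Slc22a6 −0.01, while Col1a2 had 0.40, with probe sets from −0.25 to 0.53. All 12 measured choroid plexus markers were higher too, with differences between 0.37 and 2.21 and a median of 1.54. The log2 of their summed level was 14.62 in WT and 15.16 in KO. Most of each sum came from Ttr, which had 14.49 and 14.86, near the top of the range of the arrays. The sum lay further above Ttr in KO than in WT. The part of these tissues in the P4ha1, P4ha2, Serpinh1 and Crtap differences was not tested. In bulk tissue, more or fewer cells of a type and more or less RNA per cell cannot be told apart.

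The HIF prolyl 4-hydroxylase genes had nearly the same values on both arrays. Egln1, which encodes PHD2, the main oxygen sensor of the HIF pathway, had 10.66 on both arrays on its brighter probe set and 8.17 in WT and 8.11 in KO on the other. Egln2, which encodes PHD1, had 9.84 in WT and 9.92 in KO. Egln3 encodes PHD3 and is itself induced by HIF in many cells. It had 6.68 in WT and 6.71 in KO on its brighter probe set, close to the signal filter, and 5.88 and 6.06 on the dimmer one. Over the 5 Egln probe sets the log2 differences ran from −0.06 to 0.18, with 3 higher, 1 lower and 1 equal. The highest of them, on the dimmer Egln3 probe set, was reached or passed by 13.8% of probe sets below the filter.
Hif1an encodes FIH, which hydroxylates an asparagine of HIF alpha and so hinders the binding of its coactivators. Its brightest probe set had 8.32 in WT and 8.44 in KO. The dimmer ones, both below the signal filter, had 5.21 and 5.37, and 3.93 and 3.60. The log2 differences of 0.12, 0.16 and −0.33 thus did not share a direction, and their average was −0.02. On the dimmest one, 5.46% of probe sets below the signal filter were as low or lower.

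Hif1a and Epas1 mRNA differed by no more than 0.07 between the arrays on any probe set. Hif1a had 11.02 in WT and 11.04 in KO on its brightest probe set, and 9.52 and 9.54 on the next. Its dimmer probe sets, below the signal filter, had 5.06 and 5.02, and 3.92 and 3.99. Epas1, which is prominent in vascular endothelium, had 12.45 in WT and 12.46 in KO on its brighter probe set, and 6.23 on both arrays on the other. The 6 probe sets of the alpha subunits had a median log2 difference of 0.015, within a range from −0.04 to 0.07. Of 11 measured endothelial markers, 8 had higher and 2 had lower values in KO, with a median difference of 0.11 and a range from −0.07 to 0.44. With probe sets averaged, 7 were higher and 4 lower, and the median was 0.09. Cdh5 had 0.25 on its brighter probe set and −0.28 on the other. Among the 19933 probe sets at or above the signal filter, 10181 were higher. The relation of these markers to Epas1 was not tested. Without replicate arrays, values this close do not show that the genotypes are alike.

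Repeated measurements of a gene on the same arrays gave a scale for these differences. Between probe sets of the same gene at or above the signal filter, the SD of the log2 difference, pooled over 5101 genes, was 0.10, and without the filter it was 0.15 over 9010 genes. It reflects the probes and not the spread between mice. The probe sets of P4htm were 0.31 apart and those of Hif1an 0.49, whereas those of P4ha1 were 0.00, those of Epas1 0.01, those of Egln1 0.06, those of Hif1a 0.11 and those of Egln3 0.15 apart. Each distance is the highest minus the lowest difference of a gene, dim probe sets included, and is not an SD. It tends to grow with the number of probe sets, which was 3 for Hif1an and 4 for Hif1a, so genes are not strictly comparable. P4ha2, P4ha3 and Egln2 have a single probe set, so that no second measurement of them was available.

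Genes that work with the HIF alpha subunits lay on either side of 0. Of 18 measured partners and regulators of HIF turnover, 10 were higher and 8 lower in KO, none reached 1.5-fold, and the median log2 difference was 0.015. Over all genes 0.61% were past 1.5-fold upward and 0.148% downward. Vhl, the ubiquitin ligase subunit that recognizes hydroxylated HIF alpha, had the highest difference, with 9.58 in WT and 9.69 in KO, while a second Vhl probe set had a difference of 0.28. Siah2, a ubiquitin ligase that targets PHD proteins, followed with 0.08, but had −0.41 on its other probe set. The lowest were Rwdd3 (−0.20), which promotes SUMO attachment to HIF1 alpha, and Hif3a, a further HIF alpha gene, and Usp20, a deubiquitinase, with −0.08 each. Their probe sets pointed in either direction, from −0.21 to 0.14 for Rwdd3, −0.49 to 0.06 for Hif3a and −0.31 to 0.25 for Usp20. Arnt, which encodes the HIF beta subunit, differed by 0.07 and its brain-enriched relative Arnt2 by 0.06, with averages over their probe sets of 0.00 and 0.01.
Among 22 measured HIF target genes, 13 had higher, 8 had lower and 1 had equal values, none of them reached 1.5-fold, and the median was 0.03. Over all genes 46.0% had higher values, dim genes included, whereas 19 of the 22 targets had a signal above the filter. Of the 19933 probe sets at or above the filter, 10181 were higher and 8845 lower, with a median of 0.01. Car12, a carbonic anhydrase gene, was closest to the threshold, with 8.12 in WT and 8.69 in KO, but its probe sets ranged from −0.09 to 0.57. Pdk1, which restrains entry of pyruvate into mitochondria, differed by 0.16 where its signal was brightest and by down to −0.05 on other probe sets. Ankrd37 and the glucose transporter gene Slc2a1 had the lowest differences above the signal filter, −0.33 and −0.19, and all Slc2a1 probe sets were lower, with differences from −0.20 to −0.08. The targets thus lay on either side of 0.

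**Figure D3:**
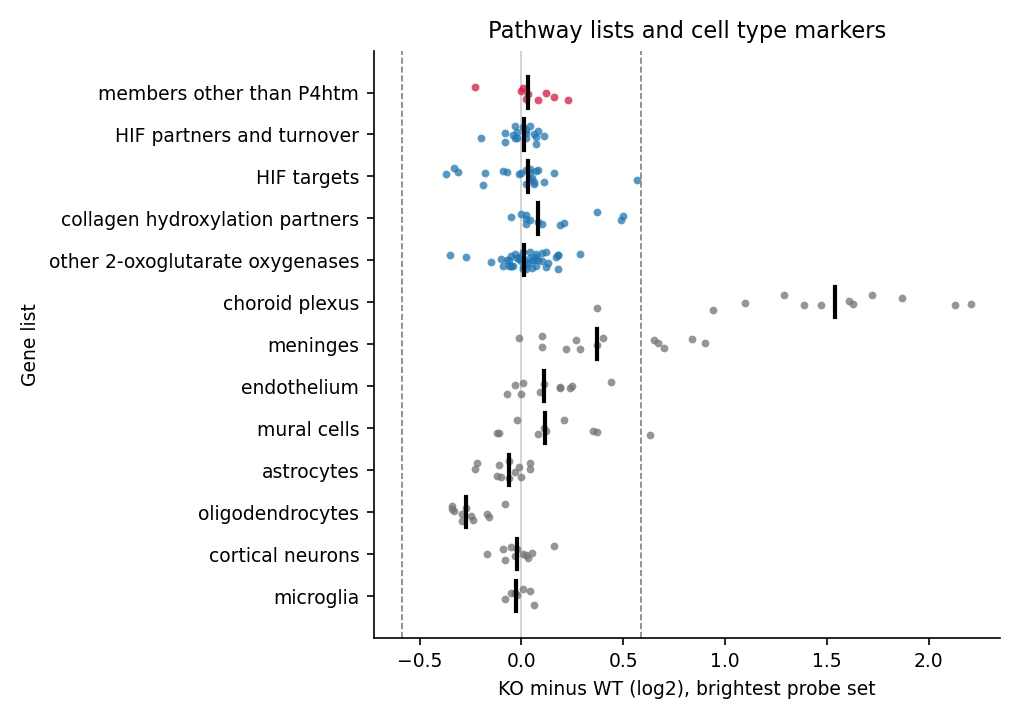
Log2 expression in KO minus WT (horizontal axis), with 1 point per measured gene on its brightest probe set, for the listed genes other than P4htm (red), the pathway lists (blue) and the cell type markers (grey). Black bars are list medians and dashed lines mark 1.5-fold; the 9 genes other than P4htm have a median of 0.03, the pathway lists have medians from 0.015 to 0.08, and the choroid plexus and meninges markers have medians of 1.54 and 0.37.

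Other enzymes that use 2-oxoglutarate, such as histone and nucleic acid demethylases, also lay on either side of 0. Of 44 measured genes, 26 had higher, 16 had lower and 2 had equal values in KO, with a median log2 difference of 0.015 and none at 1.5-fold. Jmjd8, Kdm2a and Tet1 had the highest differences above the signal filter, 0.18 each, although probe sets of Kdm2a and Tet1 went down to −0.20. Alkbh2, a DNA repair demethylase, had the lowest, −0.27, followed by Bbox1, an enzyme of carnitine synthesis, with −0.15.

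Over these 2 arrays, the genes above the signal filter whose differences came closest to that of P4htm were Spink8 (10.19 in WT and 8.12 in KO), Abhd14b (7.85 and 7.10) and Pxylp1 (9.02 and 8.39). They differed by −2.07, −0.75 and −0.63, so that only Spink8 came near the −1.95 of P4htm. All lie on chromosome 9, as do P4htm and 5.77% of the 11688 placed genes above the filter. The Pxylp1 probe set carries the same suffix as the brighter P4htm one, so its probes can also match other transcripts. A likeness over 2 arrays rests on a single difference per gene.

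The stretches just before the transcription start are shown for hydroxylase genes whose differences are given above, because Egln1 and Egln3 are known HIF targets and P4ha2 can be induced in hypoxia, while Hif1an serves as a contrast. Each is 250 bases from RefSeq, build GRCm38.p6, printed 5′ to 3′ on the strand of the gene, with capitals marking ACGTG or its reverse complement CACGT, letters found in the core of HIF binding sites. They lie at chr11:54100674-54100923 on the plus strand, chr8:124949255-124949504 on the minus strand, chr12:54203875-54204124 on the minus strand and chr19:44562604-44562853 on the plus strand.
P4ha2: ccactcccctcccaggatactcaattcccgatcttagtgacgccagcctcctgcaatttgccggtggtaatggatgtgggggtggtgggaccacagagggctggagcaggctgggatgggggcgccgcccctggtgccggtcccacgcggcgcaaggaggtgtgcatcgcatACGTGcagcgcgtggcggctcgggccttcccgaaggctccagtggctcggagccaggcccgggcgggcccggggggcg
Egln1: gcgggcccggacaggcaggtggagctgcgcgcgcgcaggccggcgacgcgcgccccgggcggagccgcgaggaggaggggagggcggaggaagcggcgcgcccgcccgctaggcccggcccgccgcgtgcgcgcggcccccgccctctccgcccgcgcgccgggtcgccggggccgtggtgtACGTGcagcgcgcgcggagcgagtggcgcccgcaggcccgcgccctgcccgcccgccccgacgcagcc
Egln3: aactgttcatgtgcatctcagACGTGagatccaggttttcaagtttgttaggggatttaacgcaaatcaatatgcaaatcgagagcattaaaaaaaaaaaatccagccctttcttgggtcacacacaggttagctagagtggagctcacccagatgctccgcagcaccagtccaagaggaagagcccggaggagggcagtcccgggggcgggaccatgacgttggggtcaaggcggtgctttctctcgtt
Hif1an: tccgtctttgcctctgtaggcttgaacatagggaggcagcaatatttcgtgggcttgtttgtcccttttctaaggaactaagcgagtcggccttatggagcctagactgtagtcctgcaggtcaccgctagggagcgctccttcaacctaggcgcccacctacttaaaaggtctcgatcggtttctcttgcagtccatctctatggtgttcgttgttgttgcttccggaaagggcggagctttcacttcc
P4ha2, Egln1 and Egln3 have 1 match each in this window and Hif1an has 0, and their log2 differences on the brightest probe set were 0.16, 0.00, 0.03 and 0.12. RefSeq windows were found for 9 of the 10 genes, all except Epas1, and numbered 10, with 2 for Egln2. ACGTG on either strand occurred in 6 of these 10 windows, against 16.6% of all 32851 promoter windows, and the related letters GCGTG in 5 of 10, against 28.2%. Of the 10 windows, 5 lie outside the annotated span of their gene, and 4 of these hold ACGTG. The windows of P4htm and Hif1a and 1 of Egln2 lie wholly inside that span, before the start of a shorter transcript, and those of P4ha1 and P4ha3 partly so; 2 of these 5 hold ACGTG. The printed windows all lie outside that span. The 1 outside window not printed is that of Egln2, which holds 1 ACGTG and 3 GCGTG matches, so the printed choice does not show how matches are spread over the genes. The genes without ACGTG were P4htm, P4ha3 and Hif1an. The Hif1a window holds CACGTG, which counts on both strands, and 1 further match. GC content ran from 48.0% to 86.0% over the 10 windows, and its part in these counts was not tested. A match is a run of letters and not a binding site, and no match says only that these letters are absent from the window.

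All 11 measured markers of cortical neurons had a signal above the filter and differed by −0.17 to 0.16. Of these, 5 were higher and 6 lower in KO, with a median of −0.02. With probe sets averaged, 7 were higher and 4 lower. Neurod6 (11.85 in WT and 11.68 in KO) had the lowest difference and Rorb (8.96 and 9.12) the highest. All 11 measured oligodendrocyte markers were lower in KO, with a median of −0.27, astrocyte markers had a median of −0.06 over 12 genes, mural cell markers one of 0.115 over 10 and microglia markers one of −0.025 over 8. Both arrays had nearly the same median over all probe sets, 6.38 in WT and 6.39 in KO. RMA, which the submitters' processing notes name, equalizes the distributions of arrays, so these medians say nothing about the tissues.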

How the data were processed

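Per the paper's methods and the labels, total RNA of cortical tissue was amplified, biotin-labeled and hybridized to Affymetrix Mouse Genome 430 2.0 arrays. The authors quantified the scans with GeneChip Operating System and normalized them with GenePattern, the submitters' processing notes name RMA, and the versions are not given in the sources used here. The deposited values are log2 values per probe set, rounded to 2 decimals, from 2.69 to 14.91. RMA equalizes the distributions of the arrays and compresses differences of dim probe sets.

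Genes were named from the platform annotation where it gives 1 symbol, with control probe sets left out, and listed genes were matched through the Entrez IDs of RefSeq, GRCm38.p6. Of 198 entries on 4 pathway and 8 marker lists, written from general knowledge, 185 were measured. The members, lists and tests were chosen with earlier results of these data known. P4H-TM KO minus WT was taken per probe set, a gene was represented by its probe set with the highest mean, and 1.5-fold was the threshold. With 1 array per genotype no test was run, and the number of arrays limits the precision. All listed members were named, with the 2 highest and 2 lowest genes of each pathway list above the signal filter (6.385) and the 3 genes closest to P4htm; ties were all named. P4hb, Arnt, Arnt2 and the marker genes are exceptions to this rule, picked with their values known. Alternatives were centred arrays, removal of the intensity trend by loess (span 0.3), averaged probe sets, other thresholds (2-fold and 1.2-fold), a signal filter, and removal of probe sets that can match other transcripts. The counting step was tested on simulated data. The tools were statsmodels 0.14.6, pandas 2.3.3, matplotlib 3.10.9 and numpy 2.4.6 under Python 3.11.15.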

Additional observations from a re-analysis of the deposited data

How the results depend on the processing

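The P4htm log2 difference of −1.95 was −1.795 as the average of its probe sets, −1.64 on the dimmer of them, and −1.96 both with centred arrays and with the intensity trend removed. The count of 2 member probe sets at least 1.5-fold lower was 1 once probe sets open to cross-matching were removed, because the brighter P4htm probe set is of that kind. It was 3 at 1.2-fold, with the dimmest Hif1an probe set added, and 2 under the other settings. The count of 0 higher was 0 under all 6 alternatives. For the other member genes, all 24 alternatives moved the difference by less than 0.15, the pooled SD between probe sets of a gene. Centring shifts every difference by 0.01, and the intensity trend was at most 0.031 at a member probe set. Only averaging could therefore have moved a difference by 0.15. Most of the member differences are themselves smaller than 0.15, so the count of 24 does not fix their size or direction. With averaged probe sets, Hif1an went from 0.12 to −0.02 and Egln3 from 0.03 to 0.105, while P4ha1 stayed at 0.23. For the pathway lists all 16 alternatives moved the median by less than 0.05. Centring shifts each median by 0.01, and the signal filter cannot change a list that lies wholly above it. Most of the medians are themselves smaller than 0.05, and that of the collagen partners went from 0.08 to 0.04 with averaged probe sets. The count of 16 therefore does not show that the medians are stable. No paired analysis was possible because there is 1 array per genotype. The limits are the single pool per genotype, whose animals cannot be separated, the rounding of the deposited values, and 8 of the 20 probe sets with a signal below the median of all probe sets.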
